A study of Mus musculus with 3 samples.

Results

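A set of 9 complement genes was followed across the cell types of the developing mouse lung. The genes were C1qa, C1qb, C1qc, C4b, C3, Cfb, Hc, C3ar1 and C5ar1, picked by symbol from the 28692 genes in the count matrices. Whole lungs of 3 wild-type C57BL/6 mice, mice 2, 3 and 4, were dissociated at postnatal day 14 after room air from day 1 to day 14. There was 1 condition, so every comparison is between cell types and the mice are the replicates (n = 3). The measure was the raw UMI count (1 UMI marks 1 captured transcript) from droplet single-cell RNA-Seq, in which reads are counted from the 3′ end.

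Complement is a cascade of secreted proteins that tags surfaces and calls in leukocytes. The products of C1qa, C1qb and C1qc join into C1q, which binds immune complexes and dying cells and starts the classical pathway; C4b encodes the next component of that pathway. C3 is the component on which all pathways meet, and factor B, the product of Cfb, builds the convertase of the alternative pathway. Hc encodes C5, which starts the terminal pathway. Cleavage of C3 and C5 frees the anaphylatoxins C3a and C5a, whose receptors are encoded by C3ar1 and C5ar1. In lung, macrophages are a known source of C1q, and type 2 alveolar epithelial cells (AT2) make surfactant as well as complement components.

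Of 9644 barcodes, 7642 passed the filters of 200 detected genes or more and no more than 20% mitochondrial transcripts (2386, 2601 and 2655 per mouse); the study states 5677 cells. They held 20804836 to 23442355 UMIs per mouse, and the median cell 4853 to 7119. Clusters were formed without any complement gene. They were called by type only from marker lists: 6460 cells fell into 22 types and 1182 cells of 11 clusters stayed unnamed. The mice shared 12 barcodes. All 6 interstitial macrophage markers were found in 83.3% to 100% of the 18 cells given that name, which came as 4, 5 and 9 cells from mice 2, 3 and 4. In the 69 alveolar macrophage-like cells the markers ranged from 26.1% of cells (Siglecf) to 81.2% (Chil3), and in AT2-like cells from 99.5% to 100%. The club-like cluster also held the ciliated cell marker Foxj1 in all 16 of its cells without C3 and in 12 of its 30 cells with C3.

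The members differed widely in how many UMIs they gave. Hc had 35089 UMIs in the kept cells, C3 3798, C4b and C5ar1 858 each, C1qa 634, C1qb 514, C1qc 402 and C3ar1 139. Cfb had 23. These totals set how firmly each gene can be described, and levels of different genes are not compared because the assay counts 3′ ends. A level below is the number of UMIs of a gene for every 1000000 UMIs of a cell type in 1 mouse (CPM). Counting error is covered by the 95% intervals; the spread over mice is the SD.

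**Figure D1:**
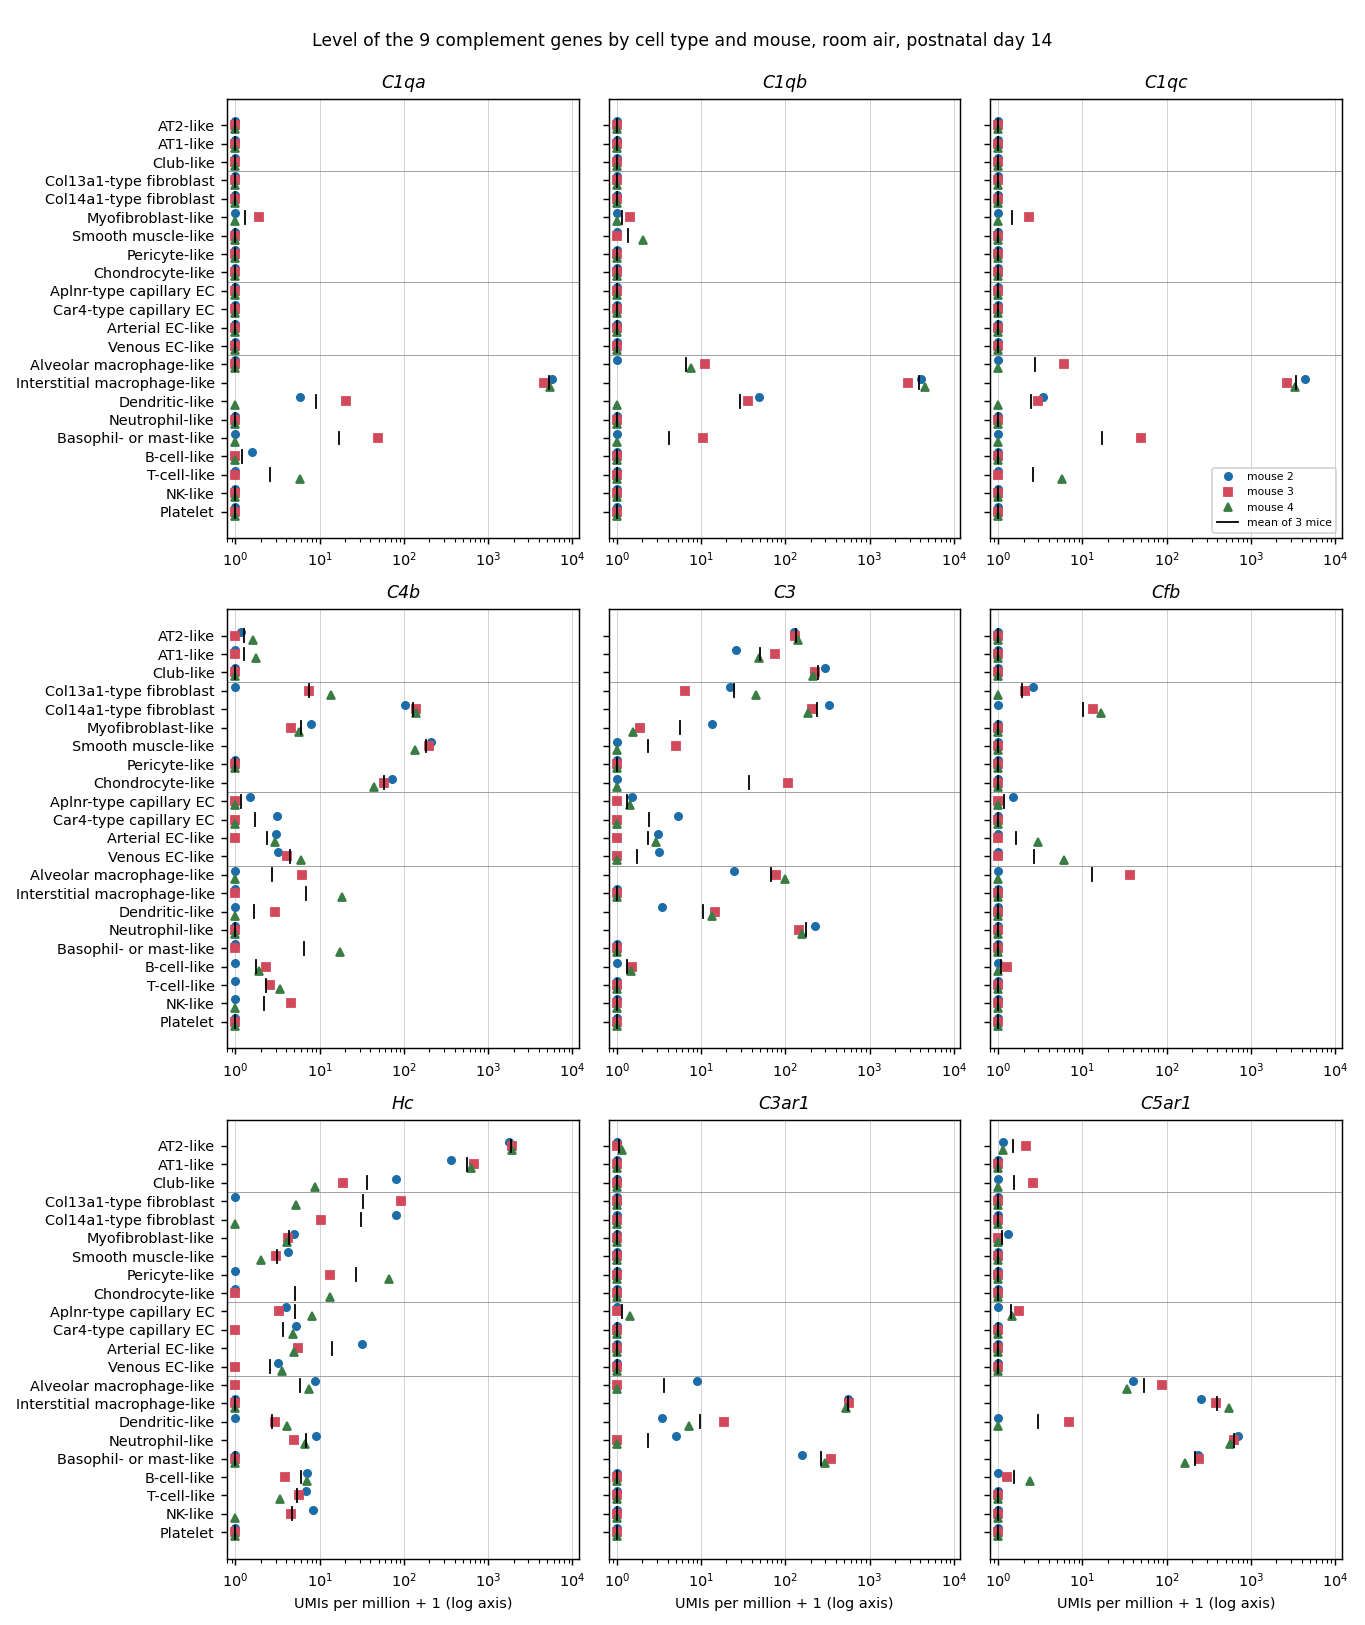
Level of each of the 9 genes (panels) in each of the 22 named cell types (vertical axis), as CPM plus 1 on a log axis. Points are the 3 mice and the black bar is their mean. The C1q panels have 1 type far from the rest, at 2663 to 5742 CPM, whereas C3 lies above 100 in 4 types.

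**Figure D2:**
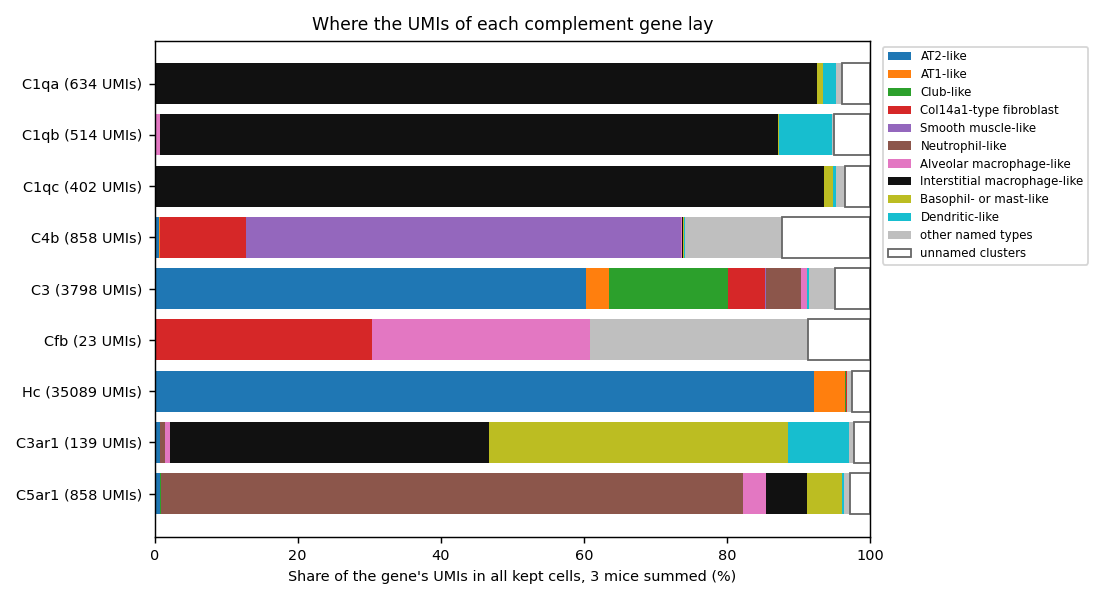
Share (%) of the UMIs of each gene that lay in each cell type, over all kept cells of the 3 mice summed. AT2-like cells held 92.2% of Hc and 60.3% of C3 UMIs, and neutrophil-like cells 81.4% of C5ar1 UMIs.

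The 3 C1q genes lie side by side on the minus strand of chromosome 4 (GRCm38), within 18675 bases. C1qa spans chr4:136895917-136898803, C1qc chr4:136889804-136893065 and C1qb chr4:136880129-136886187, each with at most 3 exons in a transcript and no other annotated gene overlapping. Because their levels moved together, the promoters of C1qb and C1qc are shown, 250 bases before to 50 after the RefSeq start (GRCm38.p6, minus strand, chr4:136886151-136886450 and chr4:136892865-136893164). Capitals mark the letters GAGGAA or their reverse complement, the core bound by Ets factors such as PU.1, which is known from myeloid genes.
C1qb: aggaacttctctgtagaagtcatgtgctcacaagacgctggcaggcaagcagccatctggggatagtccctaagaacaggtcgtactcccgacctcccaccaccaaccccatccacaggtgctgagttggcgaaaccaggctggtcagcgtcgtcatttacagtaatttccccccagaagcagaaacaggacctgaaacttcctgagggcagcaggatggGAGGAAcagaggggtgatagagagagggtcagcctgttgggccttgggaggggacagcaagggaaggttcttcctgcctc
C1qc: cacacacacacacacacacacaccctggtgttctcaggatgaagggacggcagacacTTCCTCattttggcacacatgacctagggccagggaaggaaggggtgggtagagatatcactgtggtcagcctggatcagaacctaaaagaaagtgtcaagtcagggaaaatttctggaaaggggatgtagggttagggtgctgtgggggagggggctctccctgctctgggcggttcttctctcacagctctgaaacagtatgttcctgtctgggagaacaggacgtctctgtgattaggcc
In C1qb the match starts 30 bases before the start on the coding strand, and in C1qc 193 bases before it on the other strand. Promoters were matched for 6 of the 9 members (none for C1qa, C4b and Cfb), and these were the only members of the 6 that held the motif, which 28.3% of all 32851 promoters of this length hold on either strand. Of 4 other motifs searched on both strands, GGGCGG (GC box, in 35.7% of all promoters) was in C1qc and C3ar1, TGANTCA (AP-1, 7.81%) in C3ar1, TATAAA (13.6%) in C3, Hc and C3ar1, and CCAAT (37.4%) in C5ar1. No matches overlapped. A match is a run of letters and not a shown binding site.

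Among kept cells, C1q transcripts lay almost wholly in the few interstitial macrophage-like cells. C1qa measured 5742, 4592 and 5366 CPM there in mice 2, 3 and 4, C1qb 4065, 2880 and 4539 CPM, and C1qc 4370, 2663 and 3360 CPM. Every one of the 18 cells held UMIs of all 3 genes. Outside them, 10 of 7624 kept cells did. The type made up 0.236% of kept cells but held 91.2% ± 5.92 (SD, n = 3) of C1qa, 82.3% ± 12.7 of C1qb and 92.6% ± 5.15 of C1qc UMIs. As background, B-cell-like cells, which should lack C1q, held 1 C1qa UMI and no C1qb or C1qc UMI in 1784 cells. The median depth was 6075.5 UMIs per cell in interstitial macrophage-like cells and 3960.5 in B-cell-like cells.

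Counted per cell, the 3 genes together ranged from 11 to 178 UMIs among the interstitial macrophage-like cells, with a median of 79. Only 6 further cells reached 10, and none of these passed 17 UMIs: 3 dendritic-like cells, 1 basophil- or mast-like cell and 2 cells of an unnamed cluster. The 24 cells held 95.9% of the C1q UMIs in kept cells. Cells left out by the filters held a further 85 C1qa, 85 C1qb and 48 C1qc UMIs. Dendritic-like cells gave C1qb at 47.9, 35.3 and 0 CPM, with 84.2% of the 38 UMIs in 3 cells. The next type after interstitial macrophage-like cells was below them in every mouse for each C1q gene, and the types after that overlapped each other.

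**Figure D3:**
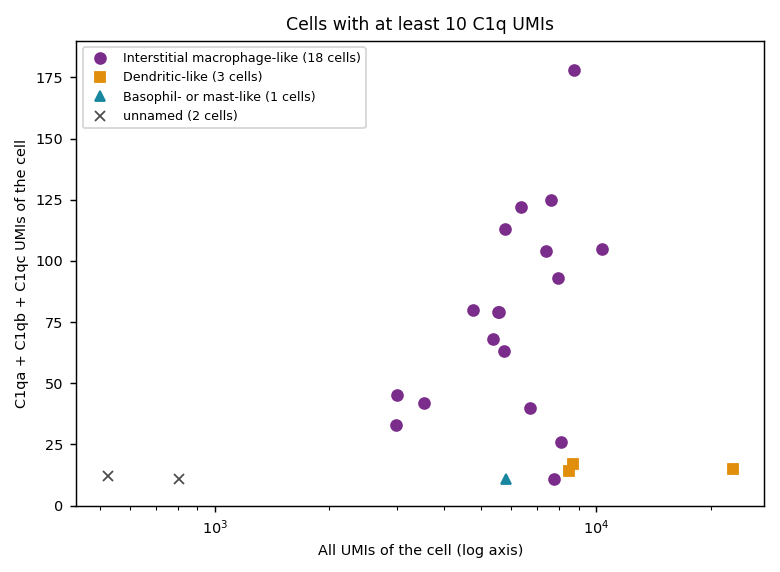
Summed C1qa, C1qb and C1qc UMIs (vertical axis) against all UMIs of the cell (log axis) for the 24 cells with at least 10 C1q UMIs. The 18 interstitial macrophage-like cells reach 178, and the other 6 cells stay at or below 17.

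Alveolar macrophage-like cells, which clear surfactant in the airspace, carried next to none of it. They held no C1qa UMI, 3 C1qb UMIs (0, 10.3 and 6.55 CPM) and 1 C1qc UMI (0, 5.13 and 0 CPM) in 69 cells. UMIs were summed per mouse and type and compared in edgeR by its quasi-likelihood F test, with p-values adjusted for all genes by the Benjamini-Hochberg method; a gene past an adjusted p of 0.05 is said to be called. Against alveolar macrophage-like cells 9.89% of 12533 genes were called (3.5% higher, 6.38% lower), and 5 of the 8 members tested, all higher in interstitial macrophage-like cells. C1qa and C1qc passed the filter on low counts only in fits that held the interstitial macrophage-like cells. Their high level there let them be tested, so their calls and the counts of members with them were largely fixed in advance. C1qa was at least 820-fold higher in pooled CPM (adjusted p = 5.27e-14), set against 3 counts because the other side was at 0. C1qb was higher by 8.55 ± 0.55 (log2 fold change ± SE, adjusted p = 5.43e-12) and C1qc by 9.88 ± 0.61 (adjusted p = 2.16e-12). Pooled CPM gave a ratio of 620 for C1qb (95% interval 211 to 3018) and of 1571 for C1qc (280 to 62222). DESeq2 called none of the 3 genes (adjusted p from 0.525 to 0.683, SE about 9.50 for C1qa), whereas their adjusted p was at most 3.02e-06 under the other alternatives. The lowest exact permutation p for 3 against 3 mice is 0.1, and all 3 genes reached it.

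Interstitial macrophage-like cells also differed from neutrophil-like cells in C1q. Neutrophil-like cells held no UMI of C1qa, C1qb or C1qc in 465 cells. Pooled CPM was at least 1916-, 1449- and 1224-fold higher in interstitial macrophage-like cells (edgeR adjusted p = 1.27e-15, 8.75e-14 and 4.89e-14; DESeq2 adjusted p from 0.389 to 0.42). In this contrast 21.4% of genes were called (7.68% higher, 13.7% lower), and 6 of 8 members tested, 4 higher and 2 lower. Here too C1qa and C1qc passed the filter on low counts only through the interstitial macrophage-like cells. All of these values rest on the 18 cells, fewer per mouse than the 10 first set as the minimum. At a clustering resolution of 1.2 the cluster given the same name held 114 cells, of which 20.2% had a C1qa UMI. The fold changes of C1q stayed positive in every alternative.

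Anaphylatoxin receptors were found in myeloid cells, each in its own order. C3ar1, the C3a receptor, measured 559, 571 and 528 CPM in interstitial macrophage-like cells and 157, 347 and 298 CPM in basophil- or mast-like cells. The ranges did not overlap, but the basophil- or mast-like cells numbered only 6, 25 and 13 in mice 2, 3 and 4. Dendritic-like cells followed at 2.40, 17.6 and 6.20 CPM, above which both leading types lay in every mouse. A C3ar1 UMI was seen in 17 of 18 interstitial macrophage-like cells (94.4%, exact 95% interval 72.7 to 99.9), 32 of 44 basophil- or mast-like cells (72.7%, 57.2 to 85.0), 1 of 69 alveolar macrophage-like cells and 1 of 465 neutrophil-like cells. B-cell-like cells had none in 1784, which allows a share of up to 0.168% of cells with a UMI and sets no limit on cells that express the gene.

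C5ar1, the C5a receptor, led in neutrophil-like cells at 707, 635 and 566 CPM. Interstitial macrophage-like cells measured 254, 380 and 545 CPM, basophil- or mast-like cells 236, 241 and 165 CPM, and alveolar macrophage-like cells 39.2, 87.2 and 32.8 CPM. No neighbours in this order overlapped, but the 254 CPM of interstitial macrophage-like cells in mouse 2 lay close to 241 CPM. That value came from 4 cells, which held 0, 0, 2 and 3 C5ar1 UMIs. The mouse 2 value of basophil- or mast-like cells rests on 6 cells. Shares of cells with a C5ar1 UMI were 66.0% of neutrophil-like, 66.7% of interstitial macrophage-like, 54.5% of basophil- or mast-like and 26.1% of alveolar macrophage-like cells, against 0.168% of B-cell-like cells. Thinned to 1000 UMIs per cell, which left out 53 shallower neutrophil-like cells and none of the interstitial macrophage-like cells, the first 3 shares became 46.1%, 26.2% and 21.4%. Both receptors were seen together in 12 of 18 interstitial macrophage-like and 18 of 44 basophil- or mast-like cells, but in 1 of 465 neutrophil-like cells.

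**Figure D4:**
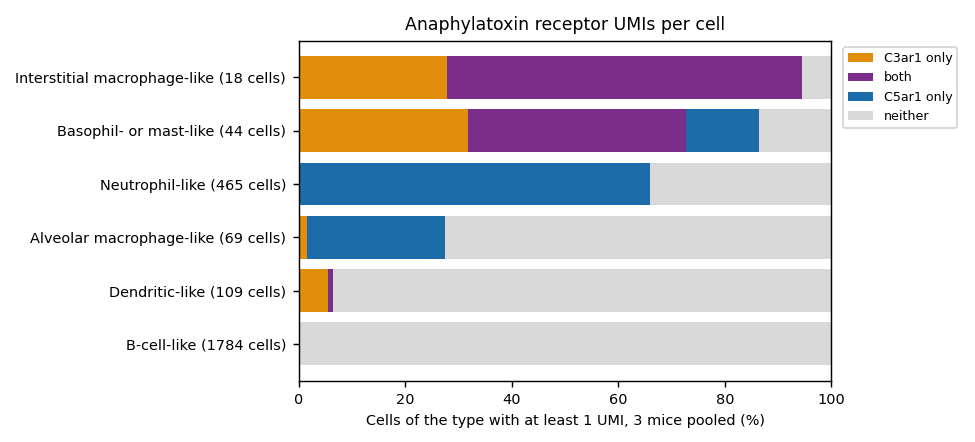
Share (%) of the cells of 6 types with UMIs of C3ar1 only, of both receptors, of C5ar1 only or of neither, 3 mice pooled. Neutrophil-like cells show C5ar1 almost alone, and 12 of the 18 interstitial macrophage-like cells show both.

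The fit placed both receptors higher in interstitial than in alveolar macrophage-like cells. C3ar1 differed by 7.26 ± 0.83 (adjusted p = 1.35e-07; DESeq2 0.779) and C5ar1 by 2.30 ± 0.46 (adjusted p = 4.16e-04). Without mouse 4 the C5ar1 difference was 1.41 and not called (adjusted p = 0.213, the highest of the alternatives, the lowest being 1.68e-09). Against neutrophil-like cells C3ar1 was higher by 7.89 ± 0.81 (adjusted p = 6.09e-09; DESeq2 0.609). C5ar1 was lower in interstitial macrophage-like cells by -1.72 ± 0.29 (adjusted p = 1.58e-05). That call was lost without TMM, the edgeR rescaling of library sizes (-0.55, adjusted p = 0.19; other alternatives reached down to 1.26e-14), and pooled CPM differed by 1.43-fold. The rescaling also turned the split of all calls: 439 genes were higher and 800 lower in interstitial than in alveolar macrophage-like cells with TMM, and 944 and 402 without it. For the neutrophil contrast the split was 963 to 1718 with TMM and 2497 to 692 without, and the median log2 difference of all genes moved from -0.07 to 0.36.

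Hc marked AT2-like cells, and C3 was found in the same cells at a lower detection rate. Hc measured 1776, 1925 and 1927 CPM in AT2-like cells, a spread of 86.4 CPM (SD) around a mean of 1876. A Hc UMI was seen in 1044 of 1051 cells, and the median cell held 28. C3 measured 126, 129 and 141 CPM there and was seen in 732 cells, 730 of which also held Hc. After thinning to 1000 UMIs the shares were 79.3% ± 1.25 for Hc and 11.4% ± 0.588 for C3. B-cell-like cells held Hc UMIs in 35 of 1784 cells (1.96%), never more than 1 per cell, and C3 UMIs in 3.

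Type 1 alveolar epithelial (AT1) cells form the thin gas-exchange surface. AT1-like cells held Hc at 363, 682 and 623 CPM and C3 at 24.7, 74.0 and 47.8 CPM, below AT2-like cells in every mouse. Both genes were called higher in AT2-like cells, 2 of 6 members tested, against 33.6% of 12418 genes (19.8% higher, 13.8% lower): Hc by 2.12 ± 0.39 (adjusted p = 1.70e-05) and C3 by 1.89 ± 0.35 (adjusted p = 2.43e-05). Of the 6, C1qb held no UMI in either type and could not be called. DESeq2 did not call Hc or C3 (adjusted p = 0.147 and 0.218, the highest of the alternatives). The AT1 values came mainly from 1 deep cluster (37 cells, median depth 35994 UMIs), which held 1466 of the 1500 Hc UMIs and all 123 C3 UMIs. The Hc-positive AT1-like cells carried the AT2 marker Sftpc at 89220 CPM, and the Hc-negative ones at 1912 CPM; the part of this difference in the Hc and C3 values was not tested. Without that cluster, left out after the data were seen, Hc differed by 6.57 ± 0.57 and AT1-like cells held 0 C3 UMIs. In this contrast 2459 genes were higher and 1714 lower with TMM, and 1181 and 3020 without it.

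Set against AT2-like cells, alveolar macrophage-like cells were higher in C5ar1 and far lower in Hc, while both types held C3. In this contrast 41.6% of genes were called (15.6% higher, 26% lower), and 4 of 6 members tested, 2 in each direction. Hc was lower in alveolar macrophage-like cells by -9.12 ± 0.88 (adjusted p = 9.90e-13), with 2 UMIs (7.85, 0 and 6.55 CPM), and pooled CPM was 444-fold higher in AT2-like cells (123 to 3666). C5ar1 was higher by 6.43 ± 0.66 (adjusted p = 8.73e-10). C3 at 23.5, 77.0 and 98.3 CPM was lower by -1.30 ± 0.53 (adjusted p = 0.0435). The C3 call was lost without mouse 2 (-0.90, adjusted p = 0.158), without mouse 3 (-1.40, 0.0671), without mouse 4 (-1.61, 0.0621), with DESeq2 (0.358) and under 4 further alternatives. C1qb was called higher from 3 UMIs against 0 (adjusted p = 0.0118), which did not hold without mouse 3 (0.235) or with DESeq2 (0.598). The split of all calls was 1937 higher to 3223 lower with TMM and 2545 to 2334 without.

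C3 was found in epithelial, stromal and immune types, but most of its UMIs lay in AT2-like cells. Club-like cells, secretory cells of the airway, gave 299, 222 and 215 CPM, Col14a1-type fibroblasts 326, 208 and 185 CPM, and neutrophil-like cells 222, 146 and 155 CPM. These neighbours overlapped each other. With marked doublets kept, AT2-like cells lay just below all mice of the neutrophil-like type (141 against 146 CPM). By number of UMIs AT2-like cells came first, with 59.9% ± 5.77 of C3 UMIs. Club-like cells held 16.3% ± 4.24, Col14a1-type fibroblasts 5.40% ± 2.43 and neutrophil-like cells 5.06% ± 1.90. The club-like cells were deep, with a median of 40832 UMIs, and 8 of 46 were marked as likely doublets. Their pooled C3 level was 250 CPM with these cells and 251 without them.

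In fibroblasts C3 was a matter of few cells. Of 59 Col14a1-type fibroblasts, the adventitial fibroblasts of vessels and airways, 15 held C3, and the top 3 cells held 71.1% of the 201 UMIs. None of the 15 held a UMI of the mesothelial markers Msln, Upk3b, Wt1, Lrrn4 or Upk1b. Of the 6 markers of the type, Col14a1 was in all 15, Dpt and Clec3b in 14, Mfap5 in 13, Pi16 in 6 and Ccl11 in 5. In the 44 cells without C3, Pi16 was in 19 and Ccl11 in 18. Interstitial macrophage-like cells held no C3 UMI, which allows up to 26.5 CPM. That value depends on the clustering. At resolution 1.2 the 114 cells given the name held C3 at a pooled 216 CPM, in 23.7% of cells. With complement genes among the variable genes, the 113 cells given the name held 221 CPM, in 23.9% of cells.

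Neutrophil-like cells held C3 in 85 of 465 cells, and 51 of the 184 UMIs lay in marked doublets. Without those the level was 136 CPM, against 166 CPM pooled with them. AT2-like cells, with marked doublets kept, measured 126, 129 and 141 CPM, or 132 CPM pooled. The pooled level of neutrophil-like cells thus stayed slightly higher. Whether the mice of both types overlap without marked doublets was not tested. Sftpc was at 439 CPM in the C3-positive and 595 CPM in the C3-negative neutrophil-like cells. Of the 5 neutrophil markers, S100a8 (63881 and 25504 CPM), S100a9 (88872 and 43444) and Retnlg (8697 and 5254) were higher in the C3-positive cells. Csf3r (1240 and 2111 CPM) and Cxcr2 (446 and 472) were lower in them. The part of doublets and of free RNA in these C3 UMIs was not tested. C3 was called lower in interstitial macrophage-like than in neutrophil-like cells (adjusted p = 0.00175), where pooled CPM in neutrophil-like cells was at least 6.26-fold higher. That call was lost at resolution 1.2 (-0.41, adjusted p = 0.57, the highest of the alternatives), where the interstitial cluster was the larger one.

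C4b was a stromal gene in these lungs, led by smooth muscle. Smooth muscle-like cells, the contractile cells of airways and vessels, measured 211, 198 and 136 CPM and held 61.0% ± 4.53 of C4b UMIs. Col14a1-type fibroblasts measured 103, 140 and 139 CPM and overlapped them. Chondrocyte-like cells followed at 72.1, 57.2 and 43.2 CPM, below both types in every mouse. Pericyte-like cells held no C4b UMI in 134 cells, which allows up to 3.89 CPM. An unnamed cluster of 98 cells, which joined the pericyte-like cells when types were named without the margin between marker lists, held C4b in 12 cells at 35.8, 53.0 and 13.4 CPM.

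A C4b UMI was seen in 104 of 172 smooth muscle-like, 23 of 59 Col14a1-type and 11 of 41 chondrocyte-like cells, against 7 of 1784 B-cell-like cells. Among the 3 smooth muscle-like clusters C4b was not even: the mean was 287, 115 and 84.7 CPM. The 2 myofibroblast-like clusters were lower, at 7.54 and 2.28 CPM. In Col14a1-type fibroblasts 11 cells held both C3 and C4b. C4a, a near copy of C4b, was not in the count matrices and could not be analysed, so reads that fit both genes are uncertain.

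Between the 2 fibroblast types, 18% of genes were called (9.57% higher, 8.43% lower), and 2 of 6 members tested, both higher. Of the 6, C1qb, C3ar1 and C5ar1 held no UMI in either type and could not be called. C4b was higher in Col14a1-type than in Col13a1-type fibroblasts by 4.34 ± 0.39 (adjusted p = 1.04e-12), where the latter, the fibroblasts of the alveolar wall, measured 0, 6.47 and 12.7 CPM. C3 was higher by 3.58 ± 0.48 (adjusted p = 8.79e-08), with 21.2, 5.39 and 43.7 CPM on the lower side. The 9 C3-positive Col13a1-type fibroblasts carried Sftpc at 42190 CPM, and the 201 C3-negative ones at 433 CPM. The part of AT2 RNA in their C3 level was not tested. Neither group overlapped, and both calls held in every alternative run. Hc differed by -0.05 ± 0.81 (adjusted p = 1), and 83 of its 88 UMIs in Col13a1-type fibroblasts lay in marked doublets. The split of all calls was 1189 to 1047 with TMM and 1492 to 812 with DESeq2.

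Cfb was barely detected. Its 23 UMIs included 7 in alveolar macrophage-like cells, all from mouse 3 (0, 35.9 and 0 CPM), and 7 in 5 Col14a1-type fibroblasts (0, 12.4 and 15.4 CPM). The types overlapped, the gene did not pass the filter on low counts in any contrast, and no difference was detectable at this depth. Another annotated gene, Gm20547, overlaps Cfb on the same strand of chromosome 17 and held 0 UMIs.

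Whole groups of types were compared next. The contrasts fixed for groups weighted each type equally and could not be estimated where a type was at 0 (SE up to 21480). They called 2 of 6 members between stromal types and AT2-like cells, both lower (55.7% of genes called, 22.9% higher and 32.8% lower), 4 of 8 between macrophages and stromal types, all higher (33%, 11.6% and 21.4%), and 0 of 6 between endothelial and stromal types (46.7%, 24.7% and 22%), where 0 of 6 had an unadjusted edgeR p under 0.05 and DESeq2 called 2. With types summed into groups before the fit, a choice made after seeing the data, these were 3 of 8 (1 higher and 2 lower; 60.4% of genes, 32.8% higher and 27.6% lower), 7 of 8 (6 higher and 1 lower; 47.5%, 19% and 28.5%) and 3 of 8 (all lower; 50.7%, 21.6% and 29.1%). In each fit that tested 8 members, C1qa and C1qc passed the filter on low counts through the interstitial macrophage-like cells. Their calls for macrophages against stroma, and the counts of members with them, were therefore largely fixed in advance. The values of the members that follow are from the summed fit.

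Stromal types together measured C4b at 48.1, 55.1 and 32.5 CPM and AT2-like cells at 0.154, 0 and 0.618 CPM, a difference of 6.59 ± 0.39 (adjusted p = 2.73e-16). C3 was lower in stroma by -3.11 ± 0.22 (adjusted p = 3.55e-14) and Hc by -7.85 ± 0.45 (adjusted p = 1.39e-17). Pooled CPM of Hc was 177-fold higher in AT2-like cells (152 to 207). No mice overlapped for these 3 genes. In the equally weighted contrast the split of calls was 2844 to 4070 with TMM and 5183 to 2314 without.

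Macrophages were above stroma for C1qa by 12.27 ± 0.47, C1qb by 11.87 ± 0.58, C1qc by 11.26 ± 0.49 and C5ar1 by 9.86 ± 0.56, and C3ar1 was at least 581-fold higher in pooled CPM (highest adjusted p of the 5 genes 5.72e-12). The calls of C1qa and C1qc add no support, since their high level in macrophages let them be tested. In the equally weighted contrast C1qa was not called (SE 21480). C4b was lower by -3.67 ± 0.72 (adjusted p = 7.96e-05). C3 was called higher by 1.48 ± 0.52 (adjusted p = 0.0185), but the mice overlapped, with 20.4, 64.8 and 71.6 CPM in macrophages and 27.4, 22.8 and 11.7 CPM in stroma. Within the macrophage group, interstitial macrophage-like cells held all 587 C1qa, 444 of 447 C1qb and 375 of 376 C1qc UMIs. Alveolar macrophage-like cells held all 33 C3 UMIs of the group. Endothelial cells fell below stroma for C4b by -5.78 ± 0.37 (adjusted p = 3.06e-15) and for C3 by -4.81 ± 0.53 (adjusted p = 2.31e-09). Hc also passed (-1.23 ± 0.50, adjusted p = 0.0405) with overlapping mice. The stromal values were not even over the types. Smooth muscle-like cells held 523 of the 725 C4b UMIs of stroma, and pericyte-like cells held none. Col14a1-type fibroblasts held 201 of the 330 C3 UMIs, smooth muscle-like cells 4 and pericyte-like cells none. Of the 172 Hc UMIs, 88 lay in Col13a1-type fibroblasts, most of them in marked doublets. In the equally weighted endothelial contrast the split was 3065 to 2738 with TMM and 3894 to 2250 without.

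**Figure D5:**
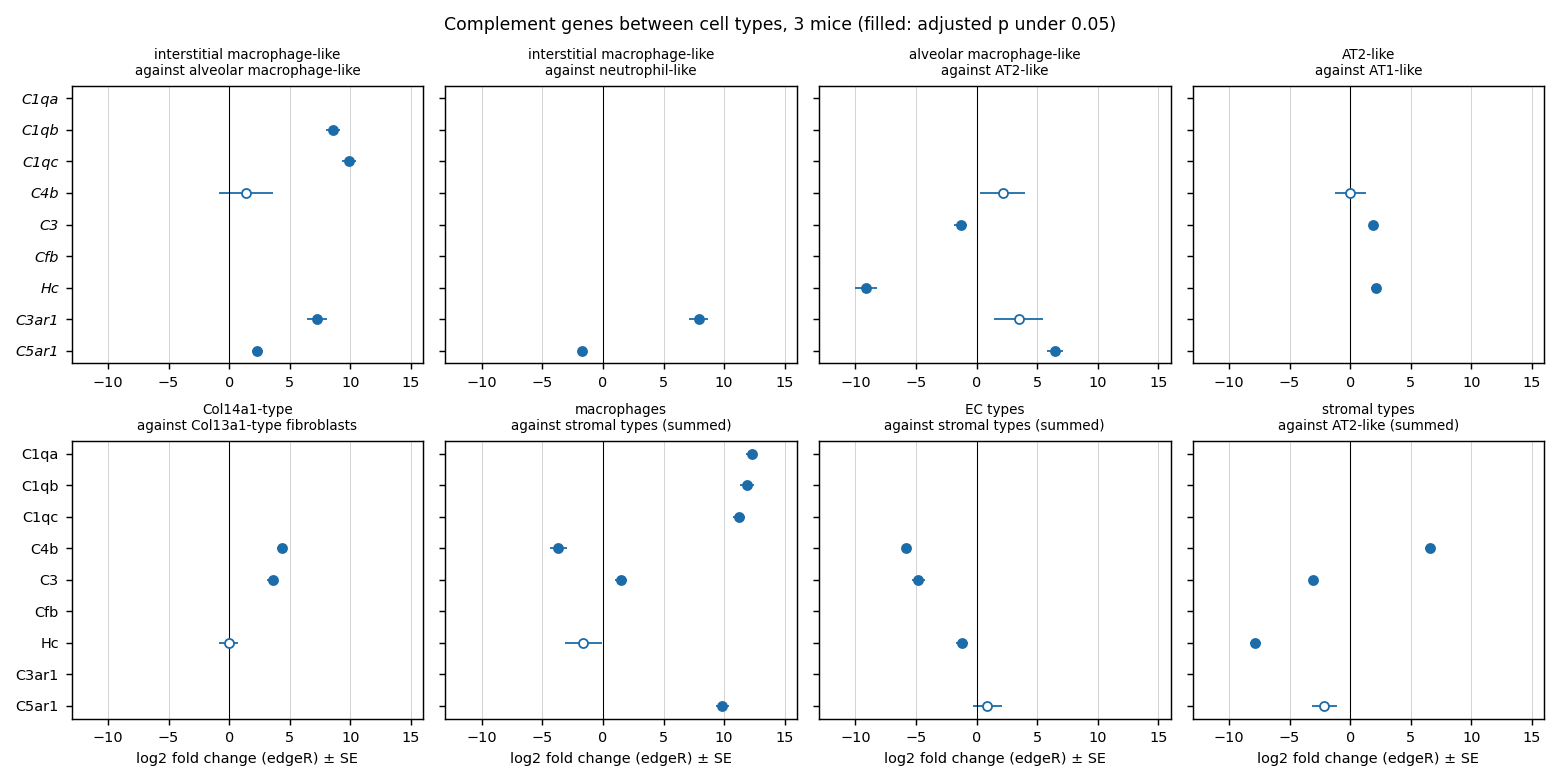
Fitted log2 fold change ± SE (edgeR) of each member in the 8 comparisons, the first type above 0; filled points passed an adjusted p of 0.05. Members with no UMI on either side or not tested are left out; C4b lies right of 0 in Col14a1-type fibroblasts and summed stroma and left of 0 in macrophages and endothelium against stroma.

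Other complement genes came from a list of 43, of which 42 were in the matrices (all but C4a). In the contrasts between types 21 passed the filter on low counts. Between the fibroblast types 10 of 21 were called (47.6%, against 18% of all genes), 7 higher in the Col14a1 type, among them Vtn (5.06), Colec11 (3.73) and C2 (2.81), and 3 lower, C7 (-4.54), Cd59a (-1.83) and Colec12 (-1.12). DESeq2 did not call Vtn, where the mice overlapped (adjusted p = 0.794), C7 (0.863) or Colec12 (0.0867). C2 encodes the partner of C4 in the classical convertase, and its level was highest in Col14a1-type fibroblasts (109 CPM ± 55.0). So were those of the C1 proteases C1s1 (577 CPM ± 110) and C1ra (313 ± 92.8) and of their inhibitor Serping1 (1691 ± 321).

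Between groups of types, the genes named were picked in the equally weighted contrast, and their values are from the summed fit unless said otherwise. Stromal types exceeded AT2-like cells in 8 of 21 genes and lay below them in 6 (66.7% called, against 55.7% of all genes). In the summed fit they were above in 7 and below in 6 of 17 (76.5%, against 60.4%). The leading genes were Serping1 (7.11), C1s1 (6.58) and Colec12 (6.58) above, and the carboxypeptidase gene Cpn1 (-7.28; DESeq2 adjusted p = 0.156 in the equally weighted contrast), C6 (-5.18) and C5ar2 (-5.66) below.

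The terminal component C6 was, like Hc, highest in AT2-like cells. It measured 114 CPM ± 3.96 in AT2-like cells and was higher there than in AT1-like cells by 2.37 ± 0.30 (edgeR adjusted p = 3.86e-08; DESeq2 0.179). In that contrast 3 genes of the list were called higher and 2 lower (Cr1l -0.57, Cd59a -0.50), which is 23.8% of 21 against 33.6% of all genes. Against AT2-like cells, alveolar macrophage-like cells had 6 higher, led by the integrin genes Itgb2 (8.48), Itgax (7.73) and Itgam (6.88), which form complement receptors, and 5 lower (52.4% of 21 called, against 41.6% of all genes). C7, which held no UMI in either type, was among the 21. The largest fitted decreases were those of C6, Clu and Cpn1, which had no UMI in alveolar macrophage-like cells, so that pooled CPM was at least 17.9-, 11.5- and 3.76-fold higher in AT2-like cells; DESeq2 did not call Cpn1 (adjusted p = 0.496).

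Of the same list, lower in interstitial macrophage-like cells were Itgax (-4.81) and Itgb2 (-2.75) against alveolar macrophage-like cells, and 5 genes against neutrophil-like cells, led by Itgam (-3.39), Itgb2 (-3.12) and Cfp (-2.97), the gene of properdin. The share of all genes called lower was 6.38% and 13.7% in these contrasts. Macrophages exceeded stroma in 5 of 21 genes and lay below it in 5 in the equally weighted contrast (47.6% called, against 33%), and in 5 and 6 of 17 in the summed fit (64.7%, against 47.5%). Itgax (10.27), Itgb2 (8.46) and Itgam (6.56) led above, and Serping1 (-6.77), C1s1 (-5.94) and C1ra (-2.22, from -5.43 when equally weighted) below. Endothelial types exceeded stroma in 2 of 21 and lay below in 6 (38.1%, against 46.7%), and in 2 and 8 of 17 in the summed fit (58.8%, against 50.7%). Cr1l was higher in both fits (0.91 in the summed one), whereas Clu was called only when equally weighted (1.54, against 0.26 in the summed fit) and C5ar2 only when summed (2.05), and the mice overlapped for both. Of the lower genes, Serping1 differed by -5.39 and C1s1 by -4.96, and C2 (-5.55 equally weighted) was not tested in the summed fit. The genes of the proteases factor D and factor I gave few counts: Cfd had 1 UMI in the named types and Cfi at most 1.45 CPM in any type. Cd55 was highest in B-cell-like cells (475 CPM ± 32.5).

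Over the 22 types the C1q genes were alike in pattern. On log2(CPM + 1) of the mean over mice, Pearson's r was 0.98 between C1qa and C1qc, 0.95 between C1qa and C1qb and 0.93 between C1qb and C1qc. It was 0.89 between C1qa and C3ar1, 0.78 between C3ar1 and C5ar1 and 0.60 between C3 and Hc. The types share libraries and differ in depth, and many values are at 0, so these are descriptions. Among 14044 genes, those most like C1qb were Fcrls (0.98), Siglech (0.96) and Ms4a7 (0.95), and beside C1qc those most like C1qa were Nxpe5 (0.97) and Cd163 (0.95). Like Hc were Snhg11 (0.96), Pla2g1b (0.95) and Lamp3 (0.94), the last of which was an AT2 marker used for naming. C5ar1 was nearest to Hk3 (0.96), Igsf6 (0.95) and Alox5 (0.95), C3ar1 to Nxpe5 (0.96), Gpr34 (0.95) and Kcnj16 (0.94), C4b to Gabra3 (0.92), Cercam (0.92) and Gm26523 (0.88), C3 to Clmn (0.85), Igfbp6 (0.81) and Mgst1 (0.80), and Cfb to Gpnmb (0.85), 1700003F12Rik (0.75) and Ear1 (0.73). Nxpe5 and 1700003F12Rik reached mean levels of at most 11.7 and 13.8 CPM in any type. A gene needed 10 CPM to enter, so the r of both rests on few UMIs. Like Lamp3, Ms4a7 and Ear1 were markers used for naming, of interstitial and of alveolar macrophage-like cells.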

How the data were processed

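Libraries of 3 mice were made with 10x 3′ chemistry, and the deposited matrices hold raw UMI counts per gene and cell that the authors made with Cell Ranger 3.0.2 (build mm10, per the submitters' notes). The sample was unclear for 0 columns. Cells passing 200 detected genes or more and no more than 20% mitochondrial transcripts were merged and clustered by SCTransform, the kind of workflow the study used (here sctransform 0.4.2, Seurat 5.3.0, R 4.3.3). The cell filter, 30 principal components and Louvain clustering at resolution 0.8 were chosen here. The 27 complement genes among the 3000 variable genes were removed first, since they are the outcome. In 5 of 29 clusters more than 1 marker list of the same class reached a mean log2 fold of 2. These were clustered again, with 20 components and 2000 variable genes. A marker list passed with a mean log2 fold of at least 1 (prior of 20 CPM) and at least 3 markers in 10% of cells. The cluster took the name of the top list where the next passing list of its class was at least 1 log2 lower. Shallow clusters (median depth more than 3-fold under that of their own libraries) with no such marker among their top 10 genes stayed unnamed. So did clusters with a score under 2 and no such marker there, and those led by markers of another class or of dividing cells. The naming rules were chosen with the clusters in view. Doublets were scored with scanpy 1.11.5, the top 0.8% per 1000 cells of a library were marked (156 cells), and they were kept.

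UMIs were summed per mouse and type with at least 10 cells (interstitial macrophage-like cells with at least 3, a change made after the data were seen) and fitted together in edgeR 4.0.16 (TMM, filterByExpr, quasi-likelihood test, Benjamini-Hochberg, threshold 0.05), with DESeq2 1.42.0 as an alternative. The fit was tested on simulated data with known changes. Single values of 3 against 3 mice had a 2-sided exact permutation test, whose smallest p is 0.1. Intervals are exact at 95%, a count of 0 was set to 3 counts, and both cover counting error only. Shares of cells were also given after thinning to 1000 UMIs per cell. Positions came from the GENCODE annotation of GRCm38 and promoters from RefSeq. Python 3.11.15, numpy 2.4.6 and scipy 1.17.1 were used.

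The 9 members are named in every comparison. From the other complement genes the text names, in each contrast, up to 3 called genes per direction with the largest change, and a set of classical, alternative and regulator genes; likeness names the 3 genes with the highest r. Of the other complement genes, 1 that this rule names is not reported here. The members and lists were chosen with earlier results of these data known. All sums of a mouse share that animal, so mouse pairs the types: over 513 pairs of types, deviations of 125 genes correlated at -0.771 to 0.841 with a median of 0.174. The block by mouse was an alternative. Cells of the unnamed clusters entered no comparison.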

Additional observations from a re-analysis of the deposited data

How the results depend on the processing

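Across all alternatives no called log2 fold change of a member reversed: 331 of 361 values kept their direction and call, and 30 kept their direction but lost the call. DESeq2 gave fewer called members in 5 contrasts and more in 2, namely 1 for interstitial against alveolar macrophage-like cells (5 in edgeR), 2 against neutrophil-like cells (6), 2 for alveolar macrophage-like against AT2-like cells (4), 0 for AT2-like against AT1-like cells (2; 0 at an unadjusted DESeq2 p under 0.05), 3 for stromal types against AT2-like cells (2), 2 for macrophages against stromal types (4) and 2 for endothelial against stromal types (0). It called 3 genes of the wider complement list between AT2-like and AT1-like cells (5 in edgeR). Of all genes tested (12533 or 12418), DESeq2 called 1451, 2808, 4949, 4257, 7371, 4490 and 6376 in the contrasts just listed, in that order. The edgeR numbers were 1239, 2681, 5160, 4173, 6914, 4132 and 5803. The cause of the differences in member counts was not tested. For the alternatives below, other than the summed fits, member counts are given without the share of all genes called. With the stricter cell filter (500 genes, 10% mitochondrial UMIs) 2 members were called for alveolar macrophage-like against AT2-like cells. For endothelial against stromal types, no filter on low counts gave 1 and naming without the margin gave 2. With types summed into groups, 7 members were called for macrophages and 3 for endothelium against stroma.

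Leaving out each mouse in turn, the number called ranged from 2 to 4 for alveolar macrophage-like against AT2-like cells (2 without mouse 3), from 4 to 5 and at 6 for interstitial macrophage-like cells against alveolar macrophage-like and neutrophil-like cells, from 2 to 3 between fibroblast types, from 3 to 4 for macrophages against stroma, and stayed at 2 for AT2-like against AT1-like cells, 2 for stroma against AT2-like cells and 0 for endothelium against stroma. With 2 mice, the share of UMIs in the leading type ranged from 88.0% to 93.7% for C1qa, 75.3% to 87.7% for C1qb, 90.6% to 95.5% for C1qc, 58.4% to 62.7% for C4b, 13.8% to 17.6% for C3, 0% to 25% for Cfb, 91.7% to 92.4% for Hc, 43.7% to 56.7% for C3ar1 and 78.6% to 84.8% for C5ar1. The share of C4b became 65.7% without the naming margin, that of C3 in club-like cells 8.69% and of Hc 90.8% under the stricter cell filter, and that of Hc 94.6% at resolution 1.2.

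With mouse as a replicate block, the members called were 5, 6, 4, 2, 2, 4, 2 and 0 over the 8 contrasts, as without the pairing, and the summed fits gave 7 and 3 with the block too; it changed no call of a member. Thinned to 1000 UMIs per cell, the share of cells with a UMI was 95.3% for C1qa, 93.6% for C1qb, 90% for C1qc and 40.8% for C3ar1 in interstitial macrophage-like cells, 15.8% for C4b in smooth muscle-like, 16.4% for C3 in club-like, 79.3% for Hc in AT2-like and 46.1% for C5ar1 in neutrophil-like cells.

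The main limits are the 18 interstitial macrophage-like cells, a single condition, 3 mice, and 3′ counts that carry no isoforms. The number of cells given that name was 13 under the stricter cell filter, 114 at resolution 1.2, 113 with complement genes among the variable genes and 87 without the margin.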

Other observations

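Cells outside the named types held a small part of the members. A cluster of 134 cells held 833 Hc UMIs in 27 cells and 105 C3 UMIs in 16 cells, and 14 cells held both. The leading genes of this cluster included the dividing-cell markers Top2a and Mki67, and no marker list of a cell class passed in it. Of its Hc UMIs, 352, 290 and 191 came from mice 2, 3 and 4. A shallow cluster (58 cells, median depth 831.5 UMIs) held 24 C1qa, 24 C1qb and 13 C1qc UMIs in 7 or 8 cells each. A cluster of 45 cells held 64 C3 UMIs in 19 cells, with 20, 11 and 33 UMIs per mouse. Its best marker list was the monocyte-like one, and the dendritic-like and interstitial macrophage-like lists also passed.

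C4b also appeared beside the smooth muscle-like cells. A cluster of 20 cells held 43 C4b UMIs, seen in 16 of the cells, at a pooled 198 CPM, and a cluster of 27 cells held 24 UMIs in 8 cells. Both were found in all 3 mice. Of all members, Hc had the largest number of UMIs in unnamed clusters (873) and C4b the largest share among those with more than 100 UMIs (11.7% ± 4.42, SD, n = 3).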
